A study of Rattus norvegicus with 16 samples.

Results

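The transcripts of fat cells were followed in rat skin whose sensory and autonomic nerves had been cut. The genes were 10 that adipocytes use strongly, chosen by name: Adipoq, Lep, Cfd and Retn, which encode secreted proteins, Lpl, Cd36 and Fabp4, which act in lipid uptake, Plin1 and Lipe, which act at the lipid droplet, and the transcription factor Pparg. Of these 10 genes, 9 were measured, by 11 probesets, among 14217 genes in all. Retn had no probeset that the annotation used here ties to it alone, and was not analysed here. All animals were adult female Sprague-Dawley rats. The 6 naïve rats had no surgery, and the others had the dorsal and lateral cutaneous nerves of a strip of back skin tied and cut 7 days (5 rats) or 14 days (5 rats) earlier, so incision, anaesthesia and nerve section cannot be told apart. Each sample was dorsal hairy skin of the rostral denervated strip, or of the same region in naïve rats, and gave 1 array. The paper states that nerves of a neighbouring strip were spared and that their axons sprout into the denervated skin. It places 7 and 14 days roughly at the start and the maintenance of that sprouting.

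White adipocytes store fatty acids as triglyceride in a large lipid droplet and release them again when noradrenaline from sympathetic nerve endings activates the lipases at the droplet surface. In skin they form a layer beneath the dermis that thickens while hair follicles grow and thins while they rest. Several of the genes are also used elsewhere in skin: capillary endothelium uses Fabp4 and Cd36, macrophages use Cd36, Lpl and Pparg, and skeletal muscle uses Lpl and Cd36. Whole skin was measured, so fewer adipocytes and less RNA per adipocyte cannot be told apart.

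None of the 9 genes passed the test in any of the 3 comparisons, by limma at an adjusted p under 0.05. Naïve replicate 5 carried the lowest level of 7 of the 9 genes among all 16 arrays, with Cfd 18.3-fold below the mean of the other naïve arrays, Adipoq 7.94-fold and Fabp4 4.98-fold. The 14-day arrays varied less than the naïve arrays for all 9 genes, as they did for 81.1% of all genes.

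The arrays had like medians, from 6.25 to 6.31 on the log2 scale, but the naïve arrays were not alike. Genes of the growing hair follicle (8 of 18 listed were measured) had scores of 1.85 and 2.07 in naïve replicates 1 and 2 and of −4.16 to −3.91 in naïve replicates 3 to 6, where a score averages, over the genes of a list, the distance of the log2 level from that gene's 16-array mean. Naïve replicates 4 and 5 had the lowest fibroblast scores, −1.20 and −2.13, against −0.23 or more in every other array. The same arrays had the lowest macrophage scores, −1.54 and −1.94, against −0.53 or more elsewhere. The beta-actin control probesets differed by 1.20 (3′ minus middle, log2) in naïve replicate 5 and by 0.96, 0.85 and 0.52 in replicates 4, 6 and 3, against 0.05 to 0.29 in the other 12 arrays. For beta-actin 3′ minus 5′, naïve replicate 5 had the lowest value, 0.14, against 0.47 to 0.74 in the other arrays. Its GAPDH differences were within those of the other arrays. They were 0.31 for 3′ minus 5′ (others 0.23 to 0.42) and −0.02 for 3′ minus middle (others −0.11 to 0.05). Results are therefore also given without naïve replicate 5, or without replicates 4 and 5.

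Of the 9 genes, Adipoq, Plin1 and Cfd moved together most closely, and their promoters are shown for that reason. The sequences are from RefSeq, build GRCr8, and run 5′ to 3′ up to the base before the listed start site, on the minus strand. They cover chr11:91240170-91240419 for Adipoq, chr1:143086149-143086398 for Plin1 and chr7:10465497-10465746 for Cfd. The genes themselves span chr11:91226524-91240244, chr1:143073612-143086199 and chr7:10463773-10465496, so the first 2 windows overlap the start of the annotated gene. Capitals mark matches to the letters of motifs searched on both strands.
Adipoq: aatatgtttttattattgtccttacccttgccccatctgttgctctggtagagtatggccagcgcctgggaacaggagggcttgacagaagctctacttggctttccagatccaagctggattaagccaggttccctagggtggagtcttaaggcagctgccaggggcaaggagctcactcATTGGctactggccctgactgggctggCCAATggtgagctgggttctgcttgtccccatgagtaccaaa
Plin1: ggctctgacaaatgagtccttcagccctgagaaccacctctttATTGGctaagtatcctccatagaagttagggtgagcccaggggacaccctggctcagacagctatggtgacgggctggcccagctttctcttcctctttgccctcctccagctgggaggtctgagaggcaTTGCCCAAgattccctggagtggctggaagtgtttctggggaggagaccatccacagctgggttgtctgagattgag
Cfd: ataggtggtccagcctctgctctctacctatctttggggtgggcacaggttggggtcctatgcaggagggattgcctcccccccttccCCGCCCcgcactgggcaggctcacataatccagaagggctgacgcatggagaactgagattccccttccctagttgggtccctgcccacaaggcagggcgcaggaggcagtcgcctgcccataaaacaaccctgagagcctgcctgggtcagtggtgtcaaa
The motifs searched were AGGTCA, which nuclear receptors bind, the PPAR response element, which holds it 2 times with 1 base between, TTNNGNAA for C/EBP factors, the TATA box TATAAA, the CCAAT box and the Sp1 motif GGGCGG. The Adipoq window held CCAAT on the minus strand of the printed sequence at −69 to −65 and on its plus strand at −42 to −38, counted from the start site. The Plin1 window held TTNNGNAA at −77 to −70 and CCAAT at −207 to −203, and the Cfd window held GGGCGG at −162 to −157. Among 33469 promoters of 300 bases, CCAAT stood in 37.5%, TTNNGNAA in 41.3%, GGGCGG in 33.1%, AGGTCA in 16.2%, TATAAA in 14.2% and the PPAR response element in 0.0538%. Neither AGGTCA nor that element was found in these 3 windows.

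The first question was whether denervated skin differs from naïve skin in the transcripts of fat cells. At 7 days, 0 of the 9 genes were called higher and 0 lower by limma at an adjusted p under 0.05, where 7.85% of all genes were called higher and 2.66% lower. At an unadjusted p under 0.05 the count was 0 as well, against 29.5% of all genes. At 14 days the counts against naïve skin were again 0 higher and 0 lower, where 8.95% of all genes were called higher and 14.6% lower, and 0 passed without adjustment, against 39.7%. Between 14 and 7 days 0 genes were called either way, against 8.86% higher and 10.1% lower, and 1 passed without adjustment, against 36.5%. The median difference of the 9 genes was −0.07 at 7 days, 0.11 at 14 days and 0.03 between the times, and that of all genes was −0.02, 0.02 and −0.01. Without naïve replicate 5 the median of the 9 genes was −0.21 at 7 days and −0.07 at 14 days, and without replicates 4 and 5 it was −0.32 and −0.24. In 0 genes did all 7-day arrays lie above or all below the naïve arrays, as in 3.31% and 1.35% of all genes, and the 14-day arrays did so in 0, against 3.69% and 6.66%. Both comparisons with naïve skin use the same 6 naïve arrays. Without naïve replicates 4 and 5 the counts against naïve skin stayed at 0.

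**Figure D1:**
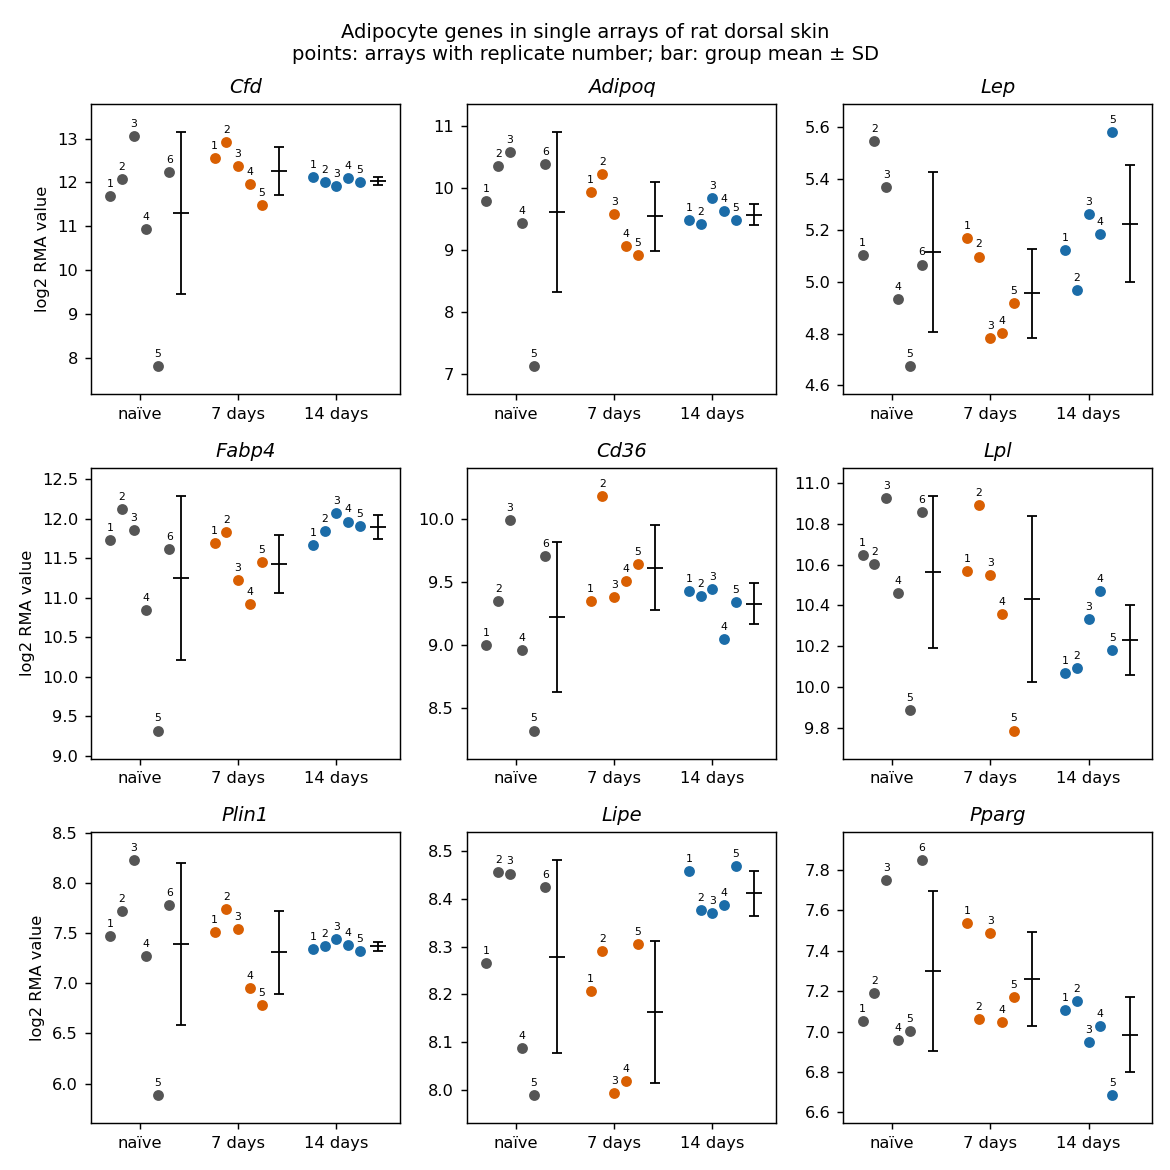
Log2 RMA value (vertical axis) of the 9 adipocyte genes in each array, by group. Points are arrays, labelled with their replicate number, and black bars give the group mean ± SD (6 naïve, 5 arrays at 7 days, 5 at 14 days). Naïve replicate 5 is the lowest naïve point for 8 genes, and each vertical axis has its own range.

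Adiponectin, the insulin-sensitising hormone encoded by Adipoq, had a log2 level of 7.12 in the lowest naïve array, a median of 10.08 and a highest value of 10.57. At 7 days the 5 arrays were at 9.93, 10.23, 9.58, 9.05 and 8.91, and at 14 days at 9.48, 9.42, 9.84, 9.63 and 9.47. Naïve replicate 5 stood alone at the bottom, and all denervated arrays lay within the naïve range. The difference from naïve skin was −0.07 at 7 days (SE 0.49, 95% interval −1.11 to 0.96, adjusted p = 0.931) and −0.04 at 14 days (−1.08 to 0.99, adjusted p = 0.956). Without naïve replicate 5 these became −0.57 (SE 0.26, adjusted p = 0.198) and −0.54 (adjusted p = 0.147), and without replicates 4 and 5 −0.74 and −0.71 (adjusted p = 0.126 and 0.0905). The 3 group means, 9.61, 9.54 and 9.57, differed by less than the spread within each of the groups.

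Cfd encodes complement factor D, or adipsin, a serine protease that fat cells secrete and that starts the alternative complement pathway. Its naïve levels ran from 7.81 through a median of 11.89 to 13.06. The 7-day arrays were at 12.55, 12.91, 12.38, 11.97 and 11.49, and the 14-day arrays at 12.12, 12.004, 11.91, 12.11 and 12.001. The denervated arrays all lay inside the naïve range, and the 14-day arrays spanned only 0.21. Group means were 11.31 in naïve skin, 12.26 at 7 days and 12.03 at 14 days. The differences from naïve skin, 0.95 (SE 0.66, interval −0.46 to 2.37, adjusted p = 0.345) and 0.72 (−0.69 to 2.14, adjusted p = 0.438), were 0.25 and 0.02 once naïve replicate 5 was left out.

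Lep, the gene of the satiety hormone leptin, was the dimmest of the set, with a mean in the lowest 25% of genes. Its naïve levels ran from 4.67 through a median of 5.09 to 5.55. At 7 days it measured 5.17, 5.10, 4.78, 4.80 and 4.92, and at 14 days 5.12, 4.97, 5.26, 5.19 and 5.58. All groups overlapped. The largest difference in mean, between 14 days and 7 days, was 0.27 (interval −0.05 to 0.59, adjusted p = 0.200).

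Among the genes of lipid uptake, Lpl encodes the lipase that frees fatty acids from circulating lipoproteins at the capillary wall. Its lowest, median and highest naïve levels were 9.89, 10.62 and 10.93. The 7-day arrays were at 10.57, 10.90, 10.55, 10.36 and 9.79, and the 14-day arrays at 10.07, 10.09, 10.33, 10.47 and 10.18. At 14 days 4 of the 5 arrays lay below every naïve array but replicate 5, and the group ranges overlapped. The order of the means was naïve 10.56, 7 days 10.43 and 14 days 10.23, and no neighbours in it differed beyond their spread. The difference at 14 days was −0.33 (SE 0.19, interval −0.74 to 0.07, adjusted p = 0.206), and without naïve replicate 5 it was −0.47 (SE 0.17, adjusted p = 0.0660).

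Fabp4 encodes the fatty acid carrier of the adipocyte cytoplasm. It ran from 9.32 through a median of 11.67 to 12.13 in naïve skin. The 7-day levels were 11.70, 11.83, 11.23, 10.92 and 11.45, and the 14-day levels 11.67, 11.85, 12.07, 11.97 and 11.91. Of the 14-day arrays 4 lay above all 7-day arrays, and replicate 1 lay within the 7-day range. The means were 11.25 in naïve skin, 11.43 at 7 days and 11.89 at 14 days, with differences from naïve skin of 0.18 (interval −0.64 to 0.99, adjusted p = 0.777) and 0.64 (−0.17 to 1.46, adjusted p = 0.220). Without naïve replicate 5 these were −0.21 and 0.26, and without replicates 4 and 5 −0.41 and 0.06. Between 14 and 7 days the difference was 0.47 (adjusted p = 0.406). When only those 10 arrays were fitted, or naïve replicates 4 and 5 were left out (adjusted p = 0.0458), that difference passed the threshold.

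Cd36 encodes a membrane receptor through which long-chain fatty acids enter the cell. Its naïve levels ran from 8.32 through 9.18 to 9.99. At 7 days it measured 9.35, 10.18, 9.38, 9.51 and 9.64, and at 14 days 9.43, 9.39, 9.44, 9.05 and 9.34. The groups overlapped, with replicate 2 the highest at 7 days. The differences from naïve skin were 0.39 (interval −0.12 to 0.90, adjusted p = 0.283) and 0.11 (−0.40 to 0.61, adjusted p = 0.768), and were 0.21 and −0.07 without naïve replicate 5. Without replicates 4 and 5 they were 0.10 and −0.18. A second probeset names Cd36 together with another gene and was left out.

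At the lipid droplet, Plin1 encodes perilipin 1, the coat protein that guards the stored triglyceride. Its naïve levels ran from 5.89 through 7.60 to 8.23. The 7-day arrays were at 7.51, 7.75, 7.55, 6.96 and 6.79, and the 14-day arrays at 7.34, 7.37, 7.44, 7.38 and 7.32. The 14-day arrays spanned only 0.12 and lay inside the 7-day range. These levels are medians of 2 probesets: the brighter stood at 6.35 in naïve replicate 5 and at 9.03 to 10.14 in the other naïve arrays, while the dimmer stood at 5.42 in replicate 5 and 5.51 to 6.32 in the others. The differences from naïve skin were −0.08 (interval −0.74 to 0.57, adjusted p = 0.874) and −0.02 (−0.68 to 0.64, adjusted p = 0.966), with the opposite sign, 0.07 and 0.05, in the brighter probeset alone. Without naïve replicate 5 they were −0.38 and −0.32 (adjusted p = 0.239 and 0.231), and without replicates 4 and 5 −0.49 and −0.43 (adjusted p = 0.182 and 0.160).

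Lipe encodes hormone-sensitive lipase, which cleaves stored lipid when the sympathetic signal arrives. Its naïve levels ran from 7.99 through 8.34 to 8.46. At 7 days it measured 8.21, 8.29, 7.99, 8.02 and 8.30, and at 14 days 8.46, 8.38, 8.37, 8.39 and 8.47. Every 14-day array lay above every 7-day array, as for 9.07% of all genes (11.6% had the reverse), and both groups overlapped naïve skin. The difference of 0.25 between the times (SE 0.09, interval 0.05 to 0.45) had an unadjusted p of 0.0192 and an adjusted p of 0.0754 in limma. It passed without naïve replicate 5 (adjusted p = 0.0447) and in the two-sided exact permutation test (p = 0.0079, the smallest that 252 regroupings can give, adjusted p = 0.0384). Every gene without overlap between these 2 groups gets that p, so the permutation test adds nothing to the separation of the arrays. The 2 probesets of Lipe did not carry it equally: the dimmer differed by 0.31 (adjusted p = 0.00985 over all probesets) and the brighter by 0.18 (adjusted p = 0.445). They also differed in naïve replicate 5. There the dimmer stood at 8.31, within the other naïve arrays (8.19 to 8.37), and the brighter at 7.67, below them (7.98 to 8.67).

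Pparg encodes the nuclear receptor that drives adipocyte differentiation and keeps mature fat cells in their state. In naïve skin its lowest, median and highest levels were 6.96, 7.12 and 7.85. It measured 7.54, 7.06, 7.49, 7.05 and 7.17 at 7 days, and 7.11, 7.15, 6.95, 7.03 and 6.69 at 14 days. The groups overlapped, with the lowest value of all in a 14-day array, and it was the only gene of the set whose lowest naïve level was not in replicate 5. The means were 7.30 in naïve skin, 7.26 at 7 days and 6.99 at 14 days, and the difference at 14 days was −0.31 (SE 0.17, interval −0.67 to 0.04, adjusted p = 0.175). With array weights, which give less weight to arrays that fit poorly, Pparg was called lower at 14 days by 0.51 (adjusted p = 0.0103) and Lpl by 0.42 (adjusted p = 0.0287).

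**Figure D2:**
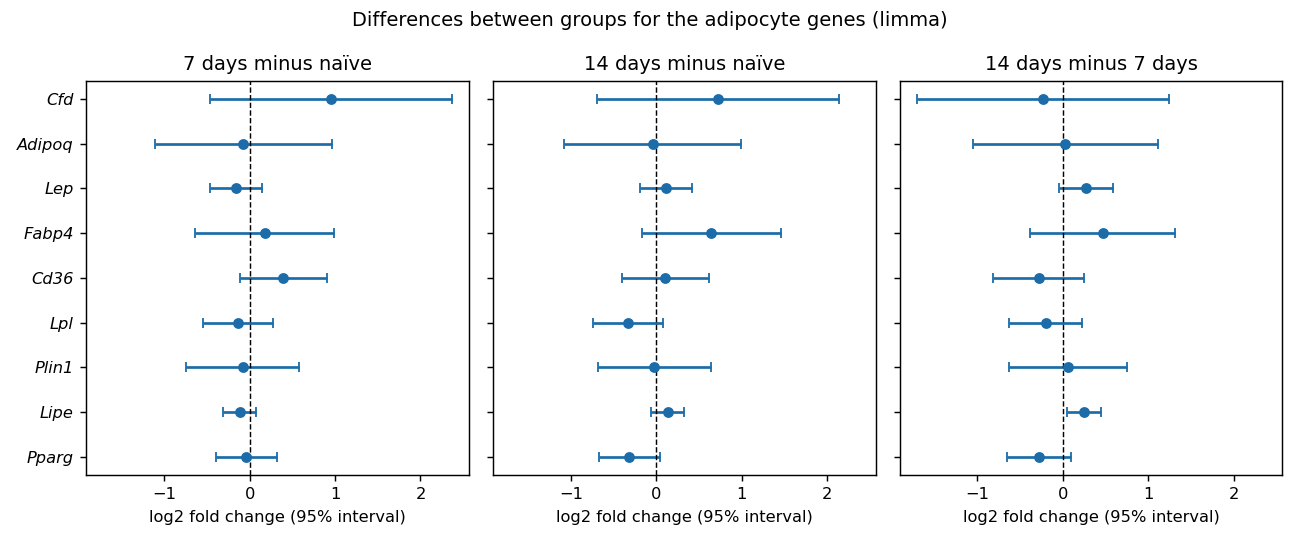
Log2 fold change (horizontal axis) of each adipocyte gene in the 3 comparisons, from the limma model over all 16 arrays. Points are estimates and bars their 95% intervals. All intervals cross 0 except that of Lipe between 14 and 7 days, and the intervals of Cfd are the widest.

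The genes varied widely between arrays of one group. Naïve replicate 5 was the lowest naïve array for 8 of the 9 genes, while it was the lowest naïve array for 23.8% of all genes. It was the lowest of all 16 arrays for 7 of the 9, against 16.7% of all genes. Its Cfd level was 4.19 below the mean of the other naïve arrays (18.3-fold lower), the largest such gap among 14217 genes. The gap was 2.99 for Adipoq (7.94-fold, rank 17), 2.32 for Fabp4 (4.98-fold, rank 47), 1.80 for Plin1 (3.49-fold, rank 122) and 1.08 for Cd36 (2.11-fold, rank 366). For Lpl, Lep, Pparg and Lipe it was smaller, from 0.81 down to 0.35. The median gap was 1.08 over the 9 genes and 0.0015 over all genes.

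Other arrays also stood to one side. Naïve replicate 3 was the highest naïve array for 5 of the genes, and 7-day replicate 2 the highest at 7 days for 6. Replicate 5 of the 7-day group was the lowest of its group for 4 genes. The adipocyte scores by array were 0.01, 0.31, 0.62, −0.31, −1.40 and 0.37 in naïve replicates 1 to 6, 0.21, 0.40, 0.03, −0.22 and −0.24 at 7 days, and 0.02, 0.00, 0.11, 0.06 and 0.04 at 14 days.

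All 9 genes varied more between naïve arrays than between 14-day arrays, as did 81.1% of all genes. The SD of Cfd was 1.85 in naïve skin, 0.55 at 7 days and 0.09 at 14 days. That of Adipoq was 1.29, 0.56 and 0.17, and that of Plin1 was 0.80, 0.41 and 0.05. The ratio of the naïve to the 14-day SD had a median of 4.26 over the 9 genes and 1.88 over all genes. Leaving out naïve replicate 5 gave 2.81 and 1.75, and the naïve SD was then still the larger for all 9 genes, against 76.6% of all genes. Among 14-day arrays the SD of Plin1 and Lipe ranked low, at percentiles 7.71 and 8.62 of all genes, that of Cfd at 39.3, and those of the other 6 between 81.3 and 95.1. Between the denervated groups the 7-day SD was the larger for 8 of the 9 genes (all but Lep), as for 76.4% of all genes.

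**Figure D3:**
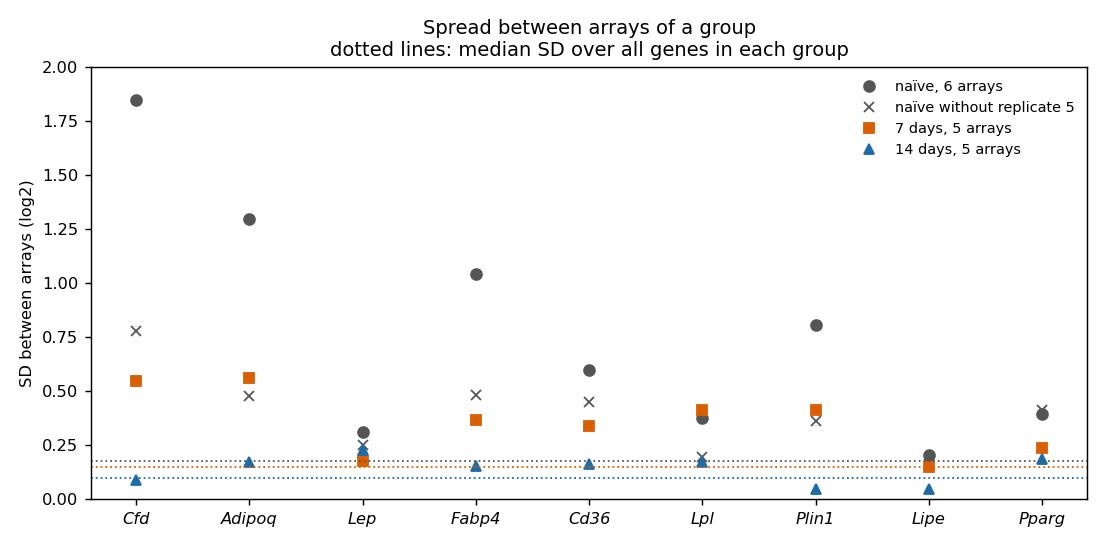
SD between arrays of a group (vertical axis, log2) for each adipocyte gene. Circles are the 6 naïve arrays, crosses the naïve arrays without replicate 5, squares the 7-day and triangles the 14-day arrays. Dotted lines give the median SD over all genes in each group. The naïve SD exceeds the 14-day SD for every gene shown, with the widest distance for Cfd.

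The arrays did not divide by these genes as they did by the genes of the growing hair follicle. The naïve arrays with high hair follicle scores, replicates 1 and 2, had adipocyte scores of 0.01 and 0.31. Of the 4 with low hair follicle scores, replicates 3 and 6 had the 2 highest naïve adipocyte scores, 0.62 and 0.37, and replicates 4 and 5 the 2 lowest. At 14 days all 5 arrays had hair follicle scores of 1.86 to 1.96 and adipocyte scores near 0. The array lowest in adipocyte genes was also the lowest in the fibroblast and macrophage lists and the highest in the skeletal muscle list, with a muscle score of 1.09. Naïve replicate 3, with a muscle score of 0.77, had the highest adipocyte score of all. Sebaceous gland scores (4 of 9 listed genes measured) lay between −0.32 and 0.11 in naïve skin and between −0.39 and 0.32 at 7 days. The part of these cell lists, of the beta-actin difference and of single arrays in the adipocyte levels was not tested.

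**Figure D4:**
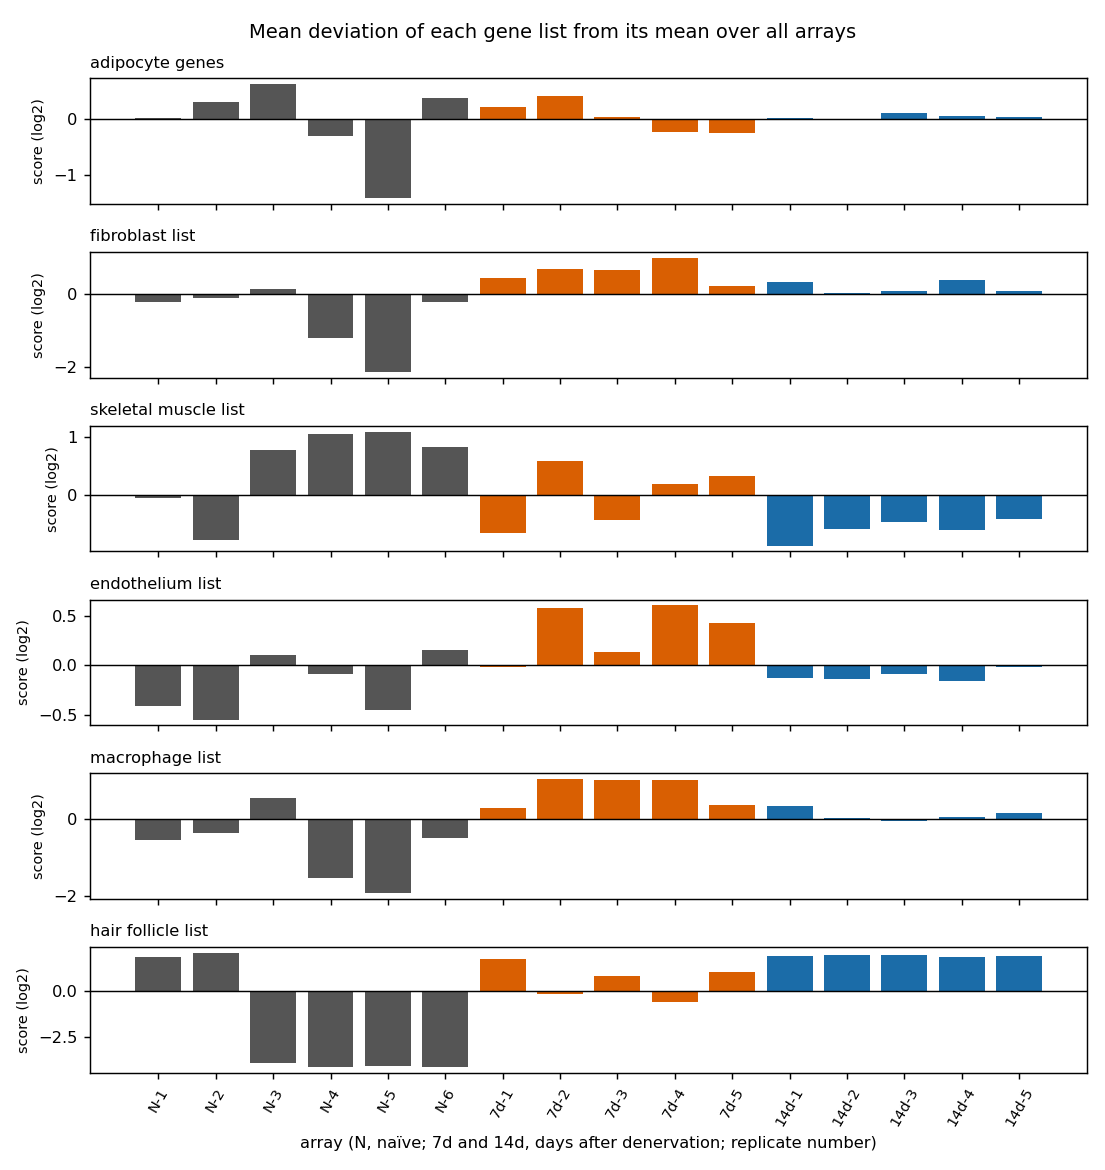
Score of 6 gene lists (vertical axis, log2) in each of the 16 arrays (horizontal axis: N naïve, 7d and 14d days after denervation, with replicate number). A bar averages the genes of a list, each taken as its distance from its own 16-array mean, and each panel has its own range. Naïve replicate 5 has the lowest bar for the adipocyte genes (−1.40), the fibroblast list (−2.13) and the macrophage list (−1.94).

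The genes of the set moved together across arrays. After the group means were taken out, Adipoq correlated at r = 0.981 with the mean of the other genes over 16 arrays, Cfd at 0.976 and Plin1 at 0.976. The dim gene Lep was left out of that mean. Lower values were found for Fabp4 (0.903), Cd36 (0.809), Lpl (0.807), Lipe (0.744), Lep (0.682) and Pparg (0.514). Without naïve replicate 5 the first 3 were at 0.935, 0.937 and 0.921, and Fabp4 at 0.652. Outside the set, the genes whose pattern was most like the mean of its 8 brighter genes were Sncg (r = 0.976), Prkar2b (0.962), Cidec (0.959), Cdo1 (0.958), S100b (0.956), Trarg1 (0.953), Itm2b (0.945), Srgn (0.943), Gm2a (0.935) and Aqp7 (0.933). Of these 10, Cidec, Aqp7 and Trarg1 belong to lists of fat genes described next, and 3 of the 10 were again among the first 10 when naïve replicate 5 was left out. The pattern was not limited to fat genes. From the fibroblast list Col1a1 (0.924), Col1a2 (0.916) and Dcn (0.911) came close, and from the macrophage list C1qa (0.896). Without naïve replicate 5 these were at 0.704, 0.664, 0.728 and 0.689. Both values of each point come from 1 array, so whatever sets an array apart enters both, and the correlations are a description.

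Other genes of fat biology were read from 8 lists, with 84 of 89 genes measured. At 7 days 7 of the 84 (8.33%) rose and 6 (7.14%) fell, against 7.85% and 2.66% of all genes. At 14 days 5 (5.95%) rose and 12 (14.3%) fell, against 8.95% and 14.6%. Between the times 4 (4.76%) rose and 6 (7.14%) fell, against 8.86% and 10.1%. With the skeletal muscle score in the model 1 of the 84 was called at 14 days in place of 17, and with the hair follicle score 1. With the fibroblast score 0 were called at 7 days in place of 13 and 4 at 14 days. Without naïve replicates 4 and 5, 3 of the 84 were called at 7 days and 6 at 14 days. The shares of all genes called under these settings are not given here, so the drops cannot be read as particular to the fat lists. The cell scores differ between the groups, so the groups and the cell lists cannot be told apart.

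Of 12 other genes of lipid droplets and lipolysis, 2 fell at 14 days, where 14.6% of all genes fell. None passed at 7 days or between the times. Plin4, a droplet coat protein of adipocytes and muscle, fell by 1.09 (adjusted p = 0.0099), from 8.68 to 10.18 in naïve skin to 8.25 to 8.72. It stood at 8.68 and 9.03 in naïve replicates 1 and 2 and at 9.70 to 10.18 in replicates 3 to 6. G0s2, the inhibitor of adipose triglyceride lipase, fell by 0.53 (adjusted p = 0.0428). For both genes the ranges overlapped.

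Among 11 partners of lipid uptake, Acsl1, which couples fatty acids to coenzyme A, fell by 0.58 at 7 days (adjusted p = 0.0289) and by 0.74 at 14 days (adjusted p = 0.00676). Every 14-day array, at 8.75 to 8.95, lay below every naïve array, at 9.08 to 10.00, as for 6.66% of all genes. Acsl1 stood at 9.42 and 9.08 in naïve replicates 1 and 2 and at 9.50 to 10.00 in replicates 3 to 6. Cav1, the caveolar coat protein of adipocytes and endothelium, fell by 0.75 from 7 to 14 days (adjusted p = 0.0137). The endothelium list fell with it in 5 of 13 genes, against 10.1% of all genes.

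The list of fatty acid and triglyceride synthesis had 14 measured genes, 2 of which fell in each comparison. Of all genes, 2.66% fell at 7 days, 14.6% at 14 days and 10.1% between the times. Gpd1, which makes the glycerol backbone of triglyceride and is also strong in muscle, fell by 0.98 at 7 days (adjusted p = 0.0237) and 1.32 at 14 days (adjusted p = 0.00421). Its naïve levels were 9.06 and 8.69 in replicates 1 and 2 and 9.74 to 10.29 in replicates 3 to 6. The muscle scores had the same division, −0.06 and −0.77 against 0.77 to 1.09. Lpin1, a phosphatidate phosphatase, fell by 0.76 at 14 days (adjusted p = 0.0368) and Me1, malic enzyme, by 0.36 at 7 days (adjusted p = 0.0140). Lpin1 stood at 7.40 and 7.58 in naïve replicates 1 and 2, at 8.21 to 8.85 in replicates 3 to 6 and at 7.26 to 7.56 at 14 days. Between the times Dgat1 fell by 0.28 (adjusted p = 0.0379) and Acly by 0.35 (adjusted p = 0.0454).

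Transcription factors that act with PPARG in fat cells moved in both directions. Of 12 measured, 1 rose and 1 fell at 7 days, where 7.85% of all genes rose and 2.66% fell. Ebf1 rose by 0.94 (adjusted p = 0.0164) and fell by 0.97 from 7 to 14 days (adjusted p = 0.0133), while Klf15 fell by 0.94 at both times (adjusted p = 0.0216 and 0.0152). At 14 days 3 fell and 1, Zfp423, rose by 0.16, where 14.6% of all genes fell and 8.95% rose. Nr1h3, the liver X receptor alpha, fell by 0.50 (adjusted p = 0.0269), and by 0.67 from 7 to 14 days (adjusted p = 0.0114), and Srebf1, which drives lipid synthesis genes, fell by 0.32 at 14 days (adjusted p = 0.0306). Naïve replicates 1 and 2 were below replicates 3 to 6 for Nr1h3 (6.85 and 6.95 against 7.10 to 7.56). The same held for Srebf1 (8.78 and 8.75 against 8.99 to 9.28) and Klf15 (6.95 and 6.89 against 7.12 to 8.21). Zfp423 rose by 0.26 from 7 to 14 days as a median of 4 probesets (adjusted p = 0.00992), but its brightest probeset gave −0.32.

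Of 9 genes of insulin response and glucose uptake, none passed at 7 days and 2 fell at 14 days, where 14.6% of all genes fell. Slc2a4, the insulin-responsive glucose transporter of fat and muscle, fell by 1.32 (adjusted p = 0.0181). It stood at 8.01 and 7.84 in naïve replicates 1 and 2, at 9.27 to 9.79 in replicates 3 to 6 and at 7.51 to 7.81 at 14 days. Grb14, an adaptor that inhibits the insulin receptor, fell by 0.85 (adjusted p = 0.0281) with the same division of naïve arrays. Of 17 measured skeletal muscle genes 12 fell at 14 days, against 14.6% of all genes, with a median of −0.96. Pik3r1, a regulatory subunit of phosphoinositide 3-kinase, rose by 0.95 from 7 to 14 days (adjusted p = 0.0181).

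Of 11 other adipokines and receptors, 2 rose and 1 fell at 7 days, where 7.85% of all genes rose and 2.66% fell. Rarres2, the gene of the adipokine chemerin, rose by 1.52 (SE 0.37, adjusted p = 0.0182). It stood at 7.84 in naïve replicate 5 and 8.96 to 10.47 in the other naïve arrays, and at 10.41, 11.07, 11.22, 11.54 and 10.22 at 7 days. Aplnr, the apelin receptor, rose by 0.76 (adjusted p = 0.00509) with no overlap, as for 3.31% of all genes, and then fell by 0.50 from 7 to 14 days (adjusted p = 0.0296). Sfrp5, a secreted WNT inhibitor with a dim probeset, fell by 0.54 (adjusted p = 0.0279). Adipor2, an adiponectin receptor, rose by 1.55 at 14 days (adjusted p = 0.0200) and by 1.72 from 7 to 14 days (adjusted p = 0.0170). Naïve replicates 1 and 2 measured 8.42 and 8.87, replicates 3 to 6 only 6.48 to 6.69 and the 14-day arrays 8.71 to 8.91. The hair follicle genes had the same division, and all 8 rose at 14 days, against 8.95% of all genes.

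The brown and beige fat list had 8 measured genes, 4 of them in the dimmest 25%. Ppargc1a, a coactivator of mitochondrial genes in brown fat and muscle and one of the dim ones, fell by 0.92 at 7 days (adjusted p = 0.00333) and by 0.79 at 14 days (adjusted p = 0.00421), with all denervated arrays below all naïve arrays. Of all genes, 1.35% had every 7-day array below every naïve array, and 6.66% had every 14-day array there. Cox8b, a cytochrome oxidase subunit of muscle and brown fat, fell by 1.54 at 14 days (adjusted p = 0.0356), a difference of 0.12 with the muscle score in the model. Dio2, which activates thyroid hormone and is dim here, rose by 0.38 at 14 days (adjusted p = 0.0403). Its naïve levels were 4.96 and 4.81 in replicates 1 and 2 and 4.17 to 4.40 in replicates 3 to 6, against 4.76 to 5.01 at 14 days, and the groups overlapped. With the hair follicle score in the model the difference was −0.0077.

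Genes of adipocyte progenitors and of inhibitors of fat cell formation had the largest median of these lists at 7 days, 1.04. Of 7 measured genes 4 were higher and 0 lower, against 7.85% and 2.66% of all genes. Pi16, a marker of progenitors in the fascia, rose by 1.14 (adjusted p = 0.00522), from 6.52 to 7.53 in naïve skin to 7.999, 8.29, 8.46, 8.40 and 7.32 at 7 days. Dpp4, a surface peptidase of the same cells, rose by 1.04 (adjusted p = 0.0188), Zfp521, a repressor of fat cell commitment, by 1.34 (adjusted p = 0.0415), and Pdgfra, a receptor of mesenchymal cells, by 1.18 (adjusted p = 0.0421). At 14 days 2 of the 7 were higher, against 8.95% of all genes. These were Dpp4 by 0.96 (adjusted p = 0.0184) and Pi16 by 0.67 (adjusted p = 0.0329). From 7 to 14 days Dlk1 rose by 0.17 (adjusted p = 0.0388). Genes of the progenitor list are shared with fibroblasts, whose list had 4 of 8 genes higher at 7 days, with scores of 0.22 to 0.97 against −2.13 to 0.12 in naïve skin. Other cell lists were higher at 7 days too, with 12 of 14 macrophage genes (median 1.42) and 9 of 13 endothelial genes (median 0.57), where 7.85% of all genes were higher. Without naïve replicates 4 and 5, 1 of the 7 progenitor genes was called at 7 days, without replicate 4 or replicate 5 alone 2, and with the fibroblast score in the model 0. The endothelium score left 1 called (median 0.13) and the hair follicle score 2. A fit of only the 2 groups compared called 1 and the replicate block 2. The exact permutation test called 0, as it did over all genes tested at 7 days. Leaving out 7-day replicate 4 left 1, and leaving out 7-day replicate 2 or 3 or any 14-day array left 2. The number of all genes called higher at 7 days moved as well, from 529 to 1508 with single arrays left out.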

How the data were processed

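RNA from 16 skin samples, 1 per rat, was hybridised to Affymetrix rat expression arrays. The authors deposited, for 31099 probesets, log2 robust multi-array averages (RMA) computed in R 3.0.1. For RMA itself no version is stated. Control probesets (57), those with no gene (9780) and those with several genes (436) were left out, and the remaining 20826 were collapsed to the median per gene. Symbols were updated through Entrez identifiers in RefSeq for GRCr8. Groups were compared by limma 3.58.1 (R 4.3.3) with 1 mean per group over all 16 arrays, two-sided, with Benjamini-Hochberg adjustment over 14217 genes and a threshold of 0.05. Precision is limited by how many arrays there are.

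The members and gene lists were chosen with earlier results of these data known. Named genes were all members, up to 3 called genes with the smallest p of each list and comparison, and the 10 genes most correlated with the members within groups. Pdgfra, Col1a1, Col1a2, Dcn and C1qa were named after their values were seen. The alternatives concerned how probesets are collapsed, a filter on dim genes, scaling, weights for arrays, the moderation, which arrays enter, a replicate block, list scores as covariates (the fibroblast score after seeing the data), the threshold, an exact permutation test and the arrays left out. Replicate numbers were not read as pairs.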

Additional observations from a re-analysis of the deposited data

Results flagged for a closer look

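Among 27 groups of arrays (9 genes in 3 groups), 2 held an array far from the others, where chance gives about 1 in 20. Adipoq in naïve replicate 5 measured 7.12, and the nearest naïve array 9.44, a gap of 67.1% of the range. Cd36 in 14-day replicate 4 measured 9.05, and the nearest 14-day array 9.34, a gap of 74.5% of a range of 0.40.

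For 10 of the 84 genes of the fat lists the level differed between the 14-day and the 7-day arrays by limma. Of the 84, 4.76% rose and 7.14% fell, against 8.86% and 10.1% of all genes, so the lists were not called more often. The difference was 1.72 for Adipor2, 0.95 for Pik3r1, 0.26 for Zfp423 (−0.32 in its brightest probeset) and 0.17 for Dlk1. It was −0.97 for Ebf1, −0.75 for Cav1, −0.67 for Nr1h3, −0.50 for Aplnr, −0.35 for Acly and −0.28 for Dgat1.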

How the results depend on the processing

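Counts of adipocyte genes called against naïve skin stayed at 0 higher and 0 lower at 7 days and 0 higher at 14 days under the 34 alternatives. At 14 days 2 genes (Pparg and Lpl) were lower with array weights and 1 (Lpl) with the fibroblast score as covariate. Between 14 and 7 days 1 gene (Lipe) was higher with probesets tested singly, with array medians subtracted, after repeated quantile normalization, with array weights, at an adjusted p under 0.1 and in the exact permutation test. In that comparison 2 (Fabp4 and Lipe) were higher with only the 2 groups compared, with the fibroblast score and without naïve replicates 4 and 5. With single arrays left out that count ran from 0 to 1, with 1 only without naïve replicate 5. The cause was not tested. Lep is missing from the fit without dim genes.

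Of the 84 list genes, 13 were called in either direction at 7 days, 17 at 14 days and 10 between the times. With array weights these were 26, 38 and 24. Fitting only the 2 groups compared gave 3 at 7 days and 22 between the times. With a replicate block 7 and 5 were called at 7 and 14 days. The labels give replicate numbers but name no pairs, and deviations of same-numbered arrays correlated from −0.55 to 0.58. With the muscle score or the hair follicle score 1 was called at 14 days, with the endothelium score 27 at 14 days and 1 between the times, and with the fibroblast score 0 at 7 days and 4 at 14 days. At an adjusted p under 0.01 there were 3, 4 and 1, and at 0.1 there were 21 at 7 days and 16 between the times. The exact permutation test called 0 at 7 and 14 days, where 462 regroupings allow no p under 0.0022. At 7 days it called 0 of all genes, so it could call none of the 84. Without naïve replicates 1 and 2 there were 31, 35 and 16, and without 4 and 5 there were 3, 6 and 16. With each array left out the counts ran from 5 to 18, 8 to 25 and 6 to 14. Those moving a count by more than 1.5 times were at 7 days naïve replicate 4 (8) and 7-day replicates 3 (7) and 4 (5), and between the times 7-day replicate 3 (6) and 14-day replicate 4 (6). At 14 days they were naïve replicates 3 (11), 4 (8), 5 (11) and 6 (8) and all 5 14-day arrays (8 to 10). Counts over all genes moved widely too when single arrays were left out. At 7 days 529 to 1508 genes were higher and 100 to 1192 lower, and at 14 days 446 to 2150 and 1209 to 2690. Between the times they were 602 to 1451 and 741 to 1670. For most other alternatives the all-gene counts are not given here.

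Signs of adipocyte genes that did not pass also turned. With naïve replicates 1 and 2 left out, Adipoq was 0.16 at 7 days and 0.19 at 14 days, and Plin1 0.018 and 0.081. With 4 and 5 left out, Fabp4 was −0.41 and Cfd −0.013 at 7 days, and Lep −0.046, Cfd −0.24 and Cd36 −0.18 at 14 days. The replicate block gave 0.083 for Adipoq and 0.070 for Pparg at 7 days, and 0.11 for Adipoq and 0.056 for Plin1 at 14 days. The brightest probeset of Plin1 gave 0.073, 0.054 and, between the times, −0.019, and that of Zfp423 −0.32 between the times. Quantile normalization gave 0.036 for Adipoq and array weights −0.15 for Cd36 at 14 days. The muscle score gave −0.10 for Fabp4 at 7 days, −0.10 for Lep, −0.057 for Cfd and 0.12 for Cox8b at 14 days, and −0.30 for Adipoq and −0.13 for Plin1 between the times. The hair follicle score gave −0.27 for Fabp4 and 0.027 for Pparg at 7 days, −0.11 for Lep, −0.037 for Fabp4, 0.036 for Cox8b and −0.0077 for Dio2 at 14 days, and −0.13 for Adipoq and −0.0090 for Plin1 between the times. The endothelium score gave −0.022 for Fabp4 and −0.23 for Cd36 at 7 days, −0.0083 for Cd36 at 14 days, and 0.50 for Cfd and 0.22 for Cd36 between the times. The fibroblast score gave −1.03 for Fabp4, −1.37 for Cfd and −0.26 for Cd36 at 7 days, −0.095 for Lep, −0.15 for Fabp4, −0.81 for Cfd, −0.0051 for Lipe and −0.32 for Cd36 at 14 days, and 0.55 for Cfd between the times. With single arrays left out, Adipoq ran from −0.57 to 0.12 at 7 days, −0.54 to 0.15 at 14 days and −0.13 to 0.20 between the times, and Plin1 from −0.38 to 0.084, −0.32 to 0.15 and −0.068 to 0.17. At 7 days Fabp4 ran from −0.21 to 0.35, Lpl from −0.27 to 0.028 and Pparg from −0.11 to 0.070, and at 14 days Cd36 from −0.074 to 0.26. Of the named list genes, 335 of 1288 values lost their call and 4 turned sign.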
